A study of Mus musculus with 12 samples.

Results

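The genes described here are 7 mouse genes of zinc handling: the metallothioneins Mt1 and Mt2, the metal-sensing transcription factor Mtf1, the metal exporters Slc30a1 and Slc30a10, and the zinc importers Slc39a4 and Slc39a14. They were named as a list, chosen because Mt1 and Mt2 were higher after dextran sulfate sodium (DSS), so their difference between DSS and control libraries is given as a description and carries no test. All 7 were found among the 22377 genes with a value, and all 7 were among the 12578 genes that passed the filter of at least 1 FPKM in at least 4 libraries. The series holds RNA sequencing of mouse colon in 12 libraries, 4 labelled control, 4 labelled DSS (a sulfated sugar polymer used to damage the gut wall) and 4 labelled FGF1 (fibroblast growth factor 1). Whether the FGF1 mice were given DSS as well is left unsaid by the labels, as are strain, sex, age, dose and duration. Nor do they say that the 4 libraries of a group came from separate animals, so p-values reflect the spread among these libraries only, which may be technical. The unit is FPKM, fragments scaled for transcript length and library total, and a gene's value is the sum over its listed transcripts. Read counts could not be recovered from the values, so the depth behind each value is unknown.

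Metallothioneins are small cysteine-rich proteins of the cytosol that bind zinc and copper. When free zinc rises, MTF1 binds metal response elements in DNA and raises transcription of Mt1, Mt2 and Slc30a1. Glucocorticoids, oxidative stress and interleukin-6 signalling are also known to raise metallothionein transcription. Most ZnT proteins (Slc30a genes) carry zinc out of the cytosol and ZIP proteins (Slc39a genes) carry it in.

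Mt1 lies on chromosome 8 of GRCm38 (94179082 to 94180327, plus strand) and Mt2 lies beside it (94172664 to 94173568, plus strand), with 5513 bases between them. Mt3 and Mt4 lie upstream in the same cluster. Mt1 (549 bases) and Mt2 (511 bases) each had a single listed transcript with 3 exons. Their spliced coding sequences, from start to stop codon, are shown because the reads of such close relatives have to be told apart for the values below to be separate measurements. Capitals mark the positions where the pair differ.

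Mt1 coding sequence: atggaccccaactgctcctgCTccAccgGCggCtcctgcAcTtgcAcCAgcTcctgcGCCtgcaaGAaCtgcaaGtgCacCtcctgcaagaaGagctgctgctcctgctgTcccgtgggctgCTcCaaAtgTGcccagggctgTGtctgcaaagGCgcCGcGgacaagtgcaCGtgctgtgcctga
Mt2 coding sequence: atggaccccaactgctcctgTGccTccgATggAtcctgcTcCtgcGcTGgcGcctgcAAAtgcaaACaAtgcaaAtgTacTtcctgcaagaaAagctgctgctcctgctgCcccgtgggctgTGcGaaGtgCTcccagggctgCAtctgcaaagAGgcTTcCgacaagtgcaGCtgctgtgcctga

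Each coding sequence has 186 bases, of which 148 are identical in place and 38 differ, an identity of 79.6%. Over the whole transcripts the longest stretch of bases that both hold is 20. How the authors placed reads that fit several genes is not stated in the sources at hand.

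Promoter sequence from RefSeq (GRCm38.p6) was matched for 5 of the 7 genes: Mt1, Mt2, Mtf1, Slc30a1 and Slc30a10. The windows, 250 bases before to 50 after the start site, were searched on both strands for the core of the metal response element, written TGCACNC or TGCGCNC, because MTF1 is known to act through it. Only bases upstream of the annotated transcripts are printed, and capitals mark the matches.

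Mt1, chr8:94178839-94179081, plus strand: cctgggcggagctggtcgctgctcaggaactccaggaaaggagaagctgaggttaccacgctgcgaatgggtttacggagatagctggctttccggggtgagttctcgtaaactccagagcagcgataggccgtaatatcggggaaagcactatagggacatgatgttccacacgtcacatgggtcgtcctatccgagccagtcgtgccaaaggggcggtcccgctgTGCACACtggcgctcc
Mt2, chr8:94172368-94172617, plus strand: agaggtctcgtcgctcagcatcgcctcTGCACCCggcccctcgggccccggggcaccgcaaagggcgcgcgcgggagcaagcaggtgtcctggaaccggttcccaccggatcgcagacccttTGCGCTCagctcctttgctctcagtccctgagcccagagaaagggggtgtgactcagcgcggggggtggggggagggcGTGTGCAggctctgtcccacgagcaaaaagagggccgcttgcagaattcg
Slc30a1, chr1:191906531-191906766, plus strand: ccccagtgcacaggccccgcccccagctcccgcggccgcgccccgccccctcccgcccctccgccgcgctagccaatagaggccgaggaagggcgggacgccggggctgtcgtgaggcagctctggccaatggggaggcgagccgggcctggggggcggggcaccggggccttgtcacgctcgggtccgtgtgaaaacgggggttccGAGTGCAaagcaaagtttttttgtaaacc
Slc30a10, chr1:185454598-185454847, plus strand: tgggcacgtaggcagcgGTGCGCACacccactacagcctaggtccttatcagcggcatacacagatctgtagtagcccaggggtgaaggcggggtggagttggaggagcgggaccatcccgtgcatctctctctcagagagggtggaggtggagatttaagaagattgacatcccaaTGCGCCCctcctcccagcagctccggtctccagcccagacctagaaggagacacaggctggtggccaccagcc

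The 300-base window of Mt2 held 4 matches, 3 of them in the printed part, at positions -223, -128 and -50 from the RefSeq start (the base before it being -1). The Mt1 window held 3, of which that at -23 is in the printed part. Slc30a10 held 3, of which a pair on opposite strands overlap at -233 and -232, so that they share most of their letters. Slc30a1 held 2 and the Mtf1 window 0. The Mtf1 window began at 124802299, past the annotated gene start at 124802104. It therefore held no bases upstream of the annotated transcripts, and its count is not comparable with the others. Of 32851 promoters of the same length in the table, 25.7% held at least 1 match, 7.11% at least 2, 1.97% at least 3 and 0.517% at least 4. The matches describe the letters of these windows and are no evidence of binding in these libraries.

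Mt1 stood at 157, 179, 118 and 126 FPKM in control libraries 1 to 4. In DSS libraries 1 to 4 it stood at 1027, 228, 894 and 541 FPKM, and in FGF1 libraries 1 to 4 at 613, 549, 190 and 384 FPKM. Every DSS and every FGF1 library was above the highest control, while the DSS and FGF1 libraries overlapped. The lowest DSS value, in library 2, and the lowest FGF1 value, in library 3, were close to the control range. Group means were 145 ± 28.3, 672 ± 360 and 434 ± 189 FPKM (SD, n = 4), so the DSS mean was 4.63 times the control mean, with a difference of 2.01 on the log2(FPKM + 1) scale. On that scale changes of weakly expressed genes come out too small.

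Mt2 was at 74.8, 81.5, 48.5 and 37.2 FPKM in the control libraries. It was at 651, 108, 661 and 400 FPKM in the DSS libraries and at 396, 413, 92.2 and 249 FPKM in the FGF1 libraries. As for Mt1, neither DSS nor FGF1 libraries overlapped the controls, and DSS 2 and FGF1 3 were the lowest of their groups. The means were 60.5 ± 21.1, 455 ± 261 and 288 ± 149 FPKM (SD, n = 4), a DSS mean 7.52 times the control mean and a log2 difference of 2.66. Between DSS and control, 2 of the 7 genes, Mt1 and Mt2, passed the threshold of an adjusted p under 0.05 that 12.3% of all tested genes passed (2.23% as higher). DSS libraries wholly above the controls were found for 3.67% of all tested genes. The background depended on scaling: 280 of 1549 called genes were higher with FPKM as deposited, against 677 of 1659 with median-of-ratios scaling, which moved the median log2 difference of all genes from -0.07 to 0.05. Since the genes were chosen for that rise, the count only restates the choice.

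**Figure D1:**
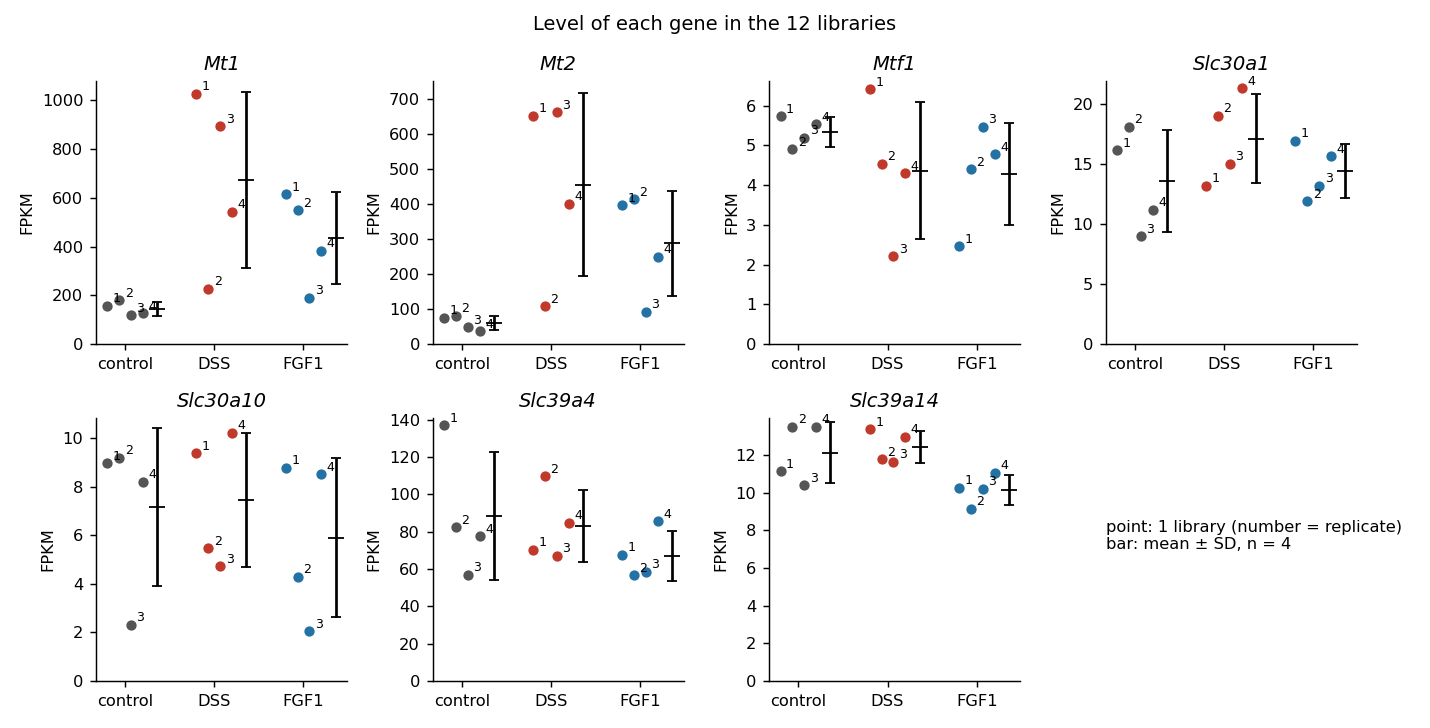
Level of each of the 7 genes in FPKM (vertical axes from 0) in the control, DSS and FGF1 libraries. Each point is a library, numbered by replicate, and the bars give the mean ± SD of 4 libraries. Mt1 and Mt2 lie above all controls in all DSS and FGF1 libraries, with library 2 of DSS and library 3 of FGF1 lowest, and Slc39a14 is lower in all 4 FGF1 libraries than in any DSS library.

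The comparison of FGF1 with control was not used in choosing the genes, although it shares the control libraries with the choice. Mt1 was 1.46 ± 0.45 (SE) higher in FGF1 on the log2 scale, with a 95% interval of 0.47 to 2.45, and the ratio of means was 2.99. Its adjusted p was 0.187 in limma (unadjusted 0.00736). Mt2 was 2.08 ± 0.59 (SE) higher, with an interval of 0.80 to 3.37 and a ratio of means of 4.75. Its adjusted p was 0.160 in limma (unadjusted 0.00413). The direction was shared by 4 of 4 FGF1 libraries for both genes, yet neither passed the threshold. Of the 7 genes 0 were called, against 0.0795% of all tested genes (10 genes, 0.00795% as higher and 0.0716% as lower), and 1753 genes had an unadjusted p under 0.05. FGF1 libraries that lay wholly above the controls were found for 3.66% of all tested genes. FGF1 libraries wholly below the controls, as for 0 of the 7 genes, were found for 6.61%.

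Neither gene passed the threshold in any of the 21 alternatives. The adjusted p of Mt1 ranged from 0.0761 to 0.448 and that of Mt2 from 0.0610 to 0.408, lowest without FGF1 library 3, where the log2 differences were 1.81 and 2.56.

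Between FGF1 and DSS libraries the log2 difference was -0.55 for Mt1 and -0.58 for Mt2. These values carry no test, because the DSS libraries had served to choose both genes. Single libraries moved them widely: without any of the 12 in turn they ranged from -0.997 to -0.198 for Mt1 and from -1.16 to -0.10 for Mt2, farthest from 0 without DSS 2 and nearest without FGF1 3. With the smooth muscle markers as covariate they were -0.23 and -0.015. The order of the group means was control, FGF1, DSS for either gene, and the neighbours FGF1 and DSS overlapped.

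Mt1 exceeded Mt2 in all 12 libraries, on the per-length FPKM scale, but by an unequal factor. The ratio of Mt1 to Mt2 was 2.10, 2.20, 2.44 and 3.39 in the controls. It was 1.58, 2.11, 1.35 and 1.35 in the DSS libraries and 1.55, 1.33, 2.07 and 1.54 in the FGF1 libraries. The ratio was highest where both genes were lowest, in controls 3 and 4, and DSS 2 and FGF1 3, the low libraries of their groups, had the highest ratios of those groups. Group means of the ratio were 2.53 ± 0.588, 1.60 ± 0.355 and 1.62 ± 0.313 (SD, n = 4).

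Together Mt1 and Mt2 made up 0.0443% to 0.0696% of the listed FPKM in the controls, 0.0917% to 0.439% in DSS and 0.0767% to 0.266% in FGF1. Ranked by level among all genes with a value, Mt1 held places 313 to 457 in the controls, 25 to 261 in DSS and 78 to 279 in FGF1. Across the 12 libraries Mt1 and Mt2 had a Pearson correlation of 0.991 and a Spearman correlation of 0.965 on the log2 scale. Without the 2 libraries farthest from the median of Mt1 (DSS 1 and DSS 3) Pearson's r was 0.992. After subtraction of each group's mean it was 0.978, and the points share the library, its total and the marker levels described below.

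**Figure D2:**
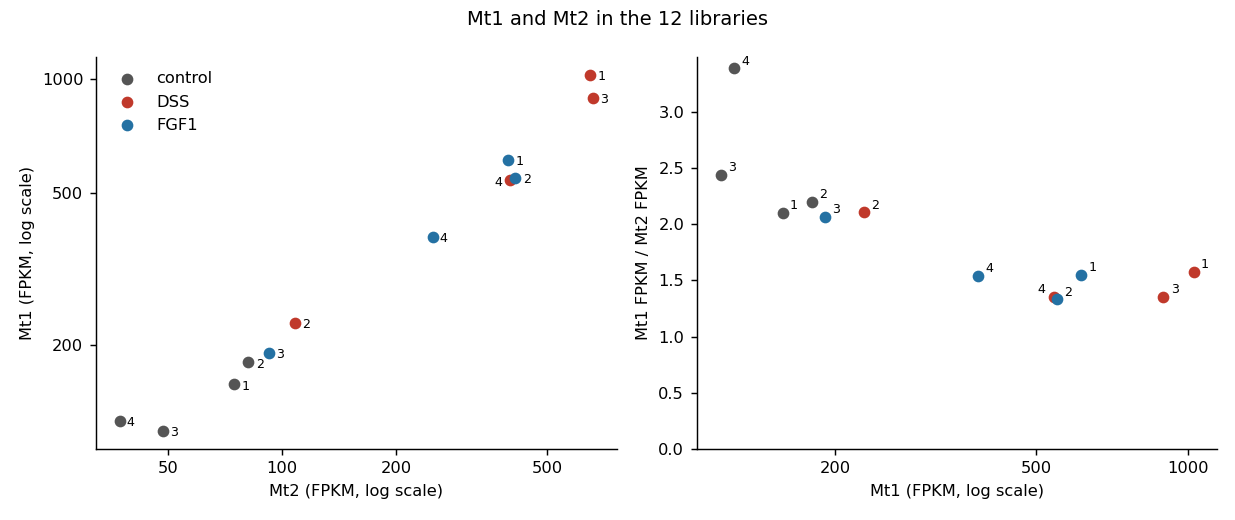
Mt1 against Mt2 (left, both in FPKM on log axes) and the ratio of Mt1 to Mt2 against Mt1 (right, ratio from 0), with a point per library, numbered by replicate and coloured by group. Libraries with more Mt1 had more Mt2, and the ratio fell from between 2.10 and 3.39 in the controls to between 1.33 and 1.58 in the 6 libraries with the most Mt1.

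For each metallothionein 10 genes were picked by the highest Pearson correlation over the 12 libraries. For Mt1 they were Plcb3 (r = 0.955), Tmem246 (0.950), 2310007B03Rik (0.944), Nsa2, Tmem117, Mthfsl, Fbp2, Mzt2, Rwdd2b and Mgat4b (0.915). The list for Mt2 shared Plcb3 (0.949), 2310007B03Rik (0.945), Tmem246, Tmem117, Nsa2, Mzt2, Mthfsl and Mgat4b with it and added 1110038B12Rik and Mal2. Plcb3, which encodes a phospholipase C, was at 61.6 to 69.6 FPKM in the controls, 81.3 to 111 in DSS and 73.1 to 91.2 in FGF1, lowest in DSS 2 and FGF1 3 among the treated libraries.

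With each group's mean subtracted, a different set led. Ntrk2 (r = 0.951), Sord (0.947), Eci2, Igdcc4 and Akap7 followed Mt1 most closely, and Igdcc4 (0.959), Arl6ip4, Sord and 2310007B03Rik were among the 5 that followed Mt2 most closely. Sord, sorbitol dehydrogenase, a zinc enzyme, was at 70.4, 32.3, 68.9 and 52.1 FPKM in DSS libraries 1 to 4. Its group means were 49.8 ± 4.82, 55.9 ± 17.8 and 51.7 ± 6.25 FPKM (SD, n = 4) in control, DSS and FGF1. These correlations were picked as the highest among all tested genes and describe these libraries.

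Mtf1, on chromosome 4 (124802104 to 124849800, plus strand), encodes the factor that senses zinc. It was at 5.73, 4.90, 5.18 and 5.53 FPKM in the controls. The DSS libraries had 6.41, 4.53, 2.21 and 4.30 FPKM and the FGF1 libraries 2.46, 4.40, 5.46 and 4.77 FPKM. The groups overlapped, with single low values in DSS 3 and FGF1 1. Its log2 difference was -0.30 between DSS and control and -0.30 ± 0.24 (SE) between FGF1 and control, the latter with a 95% interval of -0.83 to 0.23 and an adjusted p of 0.634 in limma. Between FGF1 and DSS the interval was -0.53 to 0.53. In both low libraries a retained-intron transcript (ENSMUST00000147452), otherwise at 1.26 to 3.90 FPKM, was listed at 0. The full-length transcript ENSMUST00000030723, with 11 exons, was at 2.21 and 2.46 FPKM there, within its range of 1.60 to 3.22 FPKM over all libraries.

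Slc30a1 (ZnT1), on chromosome 1 (191906767 to 191913247, plus strand), encodes the zinc exporter of the plasma membrane and is a known MTF1 target. Control libraries had 16.1, 18.1, 8.99 and 11.2 FPKM. DSS libraries had 13.2, 19.0, 15.0 and 21.3 FPKM and FGF1 libraries 17.0, 11.9, 13.2 and 15.6 FPKM. All 3 groups overlapped, and the means were 13.6 ± 4.24, 17.1 ± 3.70 and 14.4 ± 2.29 FPKM (SD, n = 4). The log2 difference was 0.34 between DSS and control. It was 0.11 ± 0.21 (SE) between FGF1 and control (95% interval -0.35 to 0.58, adjusted p 0.862 in limma) and -0.22 between FGF1 and DSS (-0.68 to 0.24, adjusted p 0.711). For FGF1 against control, the Slc30a1 interval overlapped that of Mt1 (0.47 to 2.45) but not that of Mt2 (0.80 to 3.37). The difference between the genes was not tested.

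Slc30a10 (ZnT10), also on chromosome 1 (185454848 to 185468762, plus strand), is best known as a manganese exporter. It was at 8.97, 9.18, 2.32 and 8.19 FPKM in the controls, 9.38, 5.46, 4.72 and 10.2 FPKM in DSS, and 8.77, 4.30, 2.05 and 8.51 FPKM in FGF1. Control 3 and FGF1 3 were the lowest of all. The log2 difference was 0.12 between DSS and control (-0.80 with the smooth muscle markers as covariate), -0.26 ± 0.44 (SE) between FGF1 and control (95% interval -1.21 to 0.69, adjusted p 0.846 in limma) and -0.38 between FGF1 and DSS (-1.33 to 0.57, adjusted p 0.765). Smooth muscle markers, summed, were at 7149 and 6568 FPKM in control 3 and FGF1 3, the highest of the 12 libraries; their part in the Slc30a10 values was not tested. Of its 3 listed transcripts, ENSMUST00000238677 held 83.0% of the gene's FPKM in control 4 and was listed at 0 in DSS 2, where ENSMUST00000061093 held 72.5%.

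Slc39a4 (ZIP4), on chromosome 15 (76612383 to 76617384, minus strand), is the importer through which the gut takes up dietary zinc, and its loss causes acrodermatitis enteropathica in people. It was the most abundant transporter of the list. The controls had 137, 82.4, 56.8 and 77.4 FPKM, the DSS libraries 70.3, 110, 67.1 and 84.8 FPKM and the FGF1 libraries 67.6, 56.5, 58.4 and 85.5 FPKM. The groups overlapped throughout, and control 1 was the highest library. The means were 88.4 ± 34.2, 83.0 ± 19.4 and 67.0 ± 13.2 FPKM (SD, n = 4). The log2 difference was -0.04 between DSS and control, -0.34 ± 0.24 (SE) between FGF1 and control (95% interval -0.87 to 0.19, adjusted p 0.579 in limma) and -0.30 between FGF1 and DSS (-0.83 to 0.23, adjusted p 0.661). A single transcript, ENSMUST00000230977, held 96.2% to 99.4% of the gene's FPKM in every library.

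Slc39a14 (ZIP14), on chromosome 14 (70303469 to 70351425, minus strand), carries zinc, manganese and iron and is known to rise with interleukin-6 in the liver. Control libraries had 11.1, 13.5, 10.4 and 13.5 FPKM and DSS libraries 13.4, 11.8, 11.6 and 13.0 FPKM. The FGF1 libraries had 10.2, 9.13, 10.2 and 11.1 FPKM. All 4 FGF1 libraries were below all 4 DSS libraries, which was the case for 1.83% of all tested genes, while control and DSS overlapped. FGF1 libraries wholly above DSS, as for 0 of the 7 genes, were found for 4.45%. FGF1 minus DSS was -0.27 ± 0.11 (SE) on the log2 scale, with a 95% interval of -0.50 to -0.03, and an adjusted p of 0.338 in limma (unadjusted 0.0295). Summed only over transcripts with a listed start event in that library, it was -1.48 (adjusted p 0.539 in limma; 0.248 to 0.626 over the alternatives), and the DSS minus control difference, 0.04 otherwise, was 1.10. FGF1 minus control was -0.23 ± 0.11 (SE), with an adjusted p of 0.377 in limma. Neither passed the threshold. Between FGF1 and DSS 0 of the 5 genes that could be tested were called, against 0.0557% of all tested genes (7 genes, 0.0398% as higher and 0.0159% as lower), and 1561 genes had an unadjusted p under 0.05.

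Slc39a14 had 10 listed transcripts. The main one, ENSMUST00000068044, held 64.5% to 91.5% of the gene's FPKM over the 12 libraries.

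**Figure D3:**
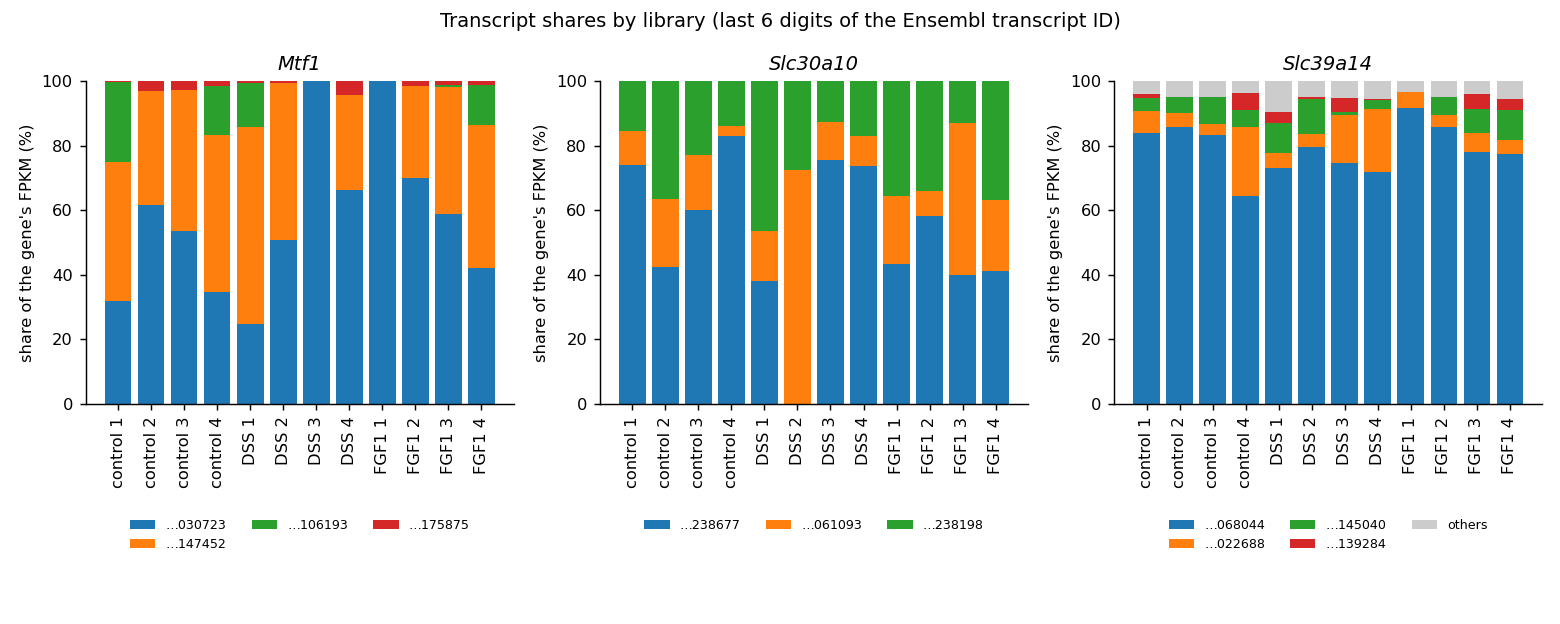
Share of each listed transcript in its gene's FPKM (vertical axes, 0 to 100%) in the 12 libraries, for Mtf1, Slc30a10 and Slc39a14; colours mark transcripts by the end of their Ensembl identifier and grey the remaining ones of Slc39a14. Mtf1 consists of a single listed transcript in DSS 3 and FGF1 1, and Slc30a10 lacks its otherwise common transcript in DSS 2.

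A second limma fit of 23992 transcripts called 0.0333% of them between FGF1 and control (8 transcripts) and 0.0167% between FGF1 and DSS (4 transcripts). None belonged to these genes.

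The rest of the zinc families were read from lists of 4 metallothioneins, 10 ZnT and 14 ZIP genes. Of the ZnT genes 7 passed the filter, and 0 were called in any of the 3 comparisons by limma. Slc30a7 alone had an unadjusted p under 0.05, in DSS against control and in FGF1 against DSS. Slc30a4, Slc30a5, Slc30a6, Slc30a7 and Slc30a9 differed between DSS and control by -0.26 to 0.12 on the log2 scale. The median over the 7 ZnT genes was 0.11, against -0.07 over all tested genes.

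Of 12 tested ZIP genes, 2 were called between DSS and control, both lower in DSS, against 10.1% of all genes called as lower. Slc39a13 (ZIP13), an importer of the secretory pathway known for its role in connective tissue, was at 7.04 to 10.6 FPKM in the controls and 4.45 to 6.13 FPKM in DSS, without overlap. DSS libraries wholly below the controls were found for 13.3% of all tested genes. It fell by 0.60 ± 0.16 (SE) on the log2 scale (adjusted p 0.0333 in limma). Slc39a11 (ZIP11) was at 28.7 to 44.7 FPKM in the controls and 20.4 to 32.1 FPKM in DSS, with overlap, and fell by 0.54 ± 0.15 (SE) on that scale (adjusted p 0.0415). The Slc39a13 call was lost in 8 of 21 alternatives and the Slc39a11 call in 16 of 21, among them the leaving out of 4 and of 8 single libraries. Those for Slc39a13 were controls 3 and 4 and DSS 3 and 4, and those for Slc39a11 were controls 1, 2 and 4, DSS 2, 3 and 4 and FGF1 2 and 4. Over all alternatives the adjusted p in limma ranged from 0.0253 to 0.769 for Slc39a13 and from 0.0137 to 0.234 for Slc39a11. Fibroblast markers, summed, were at 302 to 425 FPKM in the controls and 17.3 to 109 FPKM in DSS, and their part in the lower Slc39a13 was not tested.

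Slc39a6 (ZIP6) was at 2.99 ± 0.685, 1.62 ± 0.532 and 1.62 ± 0.476 FPKM (SD, n = 4) in control, DSS and FGF1, a log2 difference of -0.61 in DSS (adjusted p 0.0546 in limma) and -0.61 in FGF1 (adjusted p 0.187). Slc39a5 (ZIP5), which sits on the blood side of gut cells, was at 35.1 ± 5.32, 41.1 ± 7.70 and 45.5 ± 6.77 FPKM (SD, n = 4), with an adjusted p of 0.338 in limma between FGF1 and control. Slc39a9 (ZIP9) stood at separate levels within each group, from 29.4 to 34.0 FPKM in 5 libraries and from 5.72 to 7.57 FPKM in the other 7. Slc39a1, Slc39a3, Slc39a7, Slc39a8 and Slc39a10 differed between DSS and control by -0.24 to 0.32 on the log2 scale. The ZIP median was -0.08 in that comparison. In the FGF1 comparisons, against control and against DSS, 0 ZIP genes were called by limma, and 2 had an unadjusted p under 0.05 in each, Slc39a5 and Slc39a6 in the first and Slc39a11 and Slc39a14 in the second.

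Mt3, the metallothionein best known from the brain, was lower in DSS. Controls had 21.5, 21.4, 29.2 and 25.2 FPKM, DSS libraries 6.83, 12.1, 20.5 and 14.2 FPKM, and FGF1 libraries 25.5, 21.7, 25.9 and 14.5 FPKM. All DSS libraries were below all controls, as for 13.3% of all tested genes. Mt3 was called as lower, as were 10.1% of all tested genes. Its log2 difference was -0.89 ± 0.27 (SE), with an adjusted p of 0.0497 in limma. That p lies at the threshold, and the call was lost in 18 of 21 alternatives, 10 of them the leaving out of a single library (any but DSS 3 and FGF1 4), and over all alternatives its adjusted p in limma ranged from 0.0310 to 0.417. Mt4 did not pass the filter and reached 2.67 FPKM at most.

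**Figure D4:**
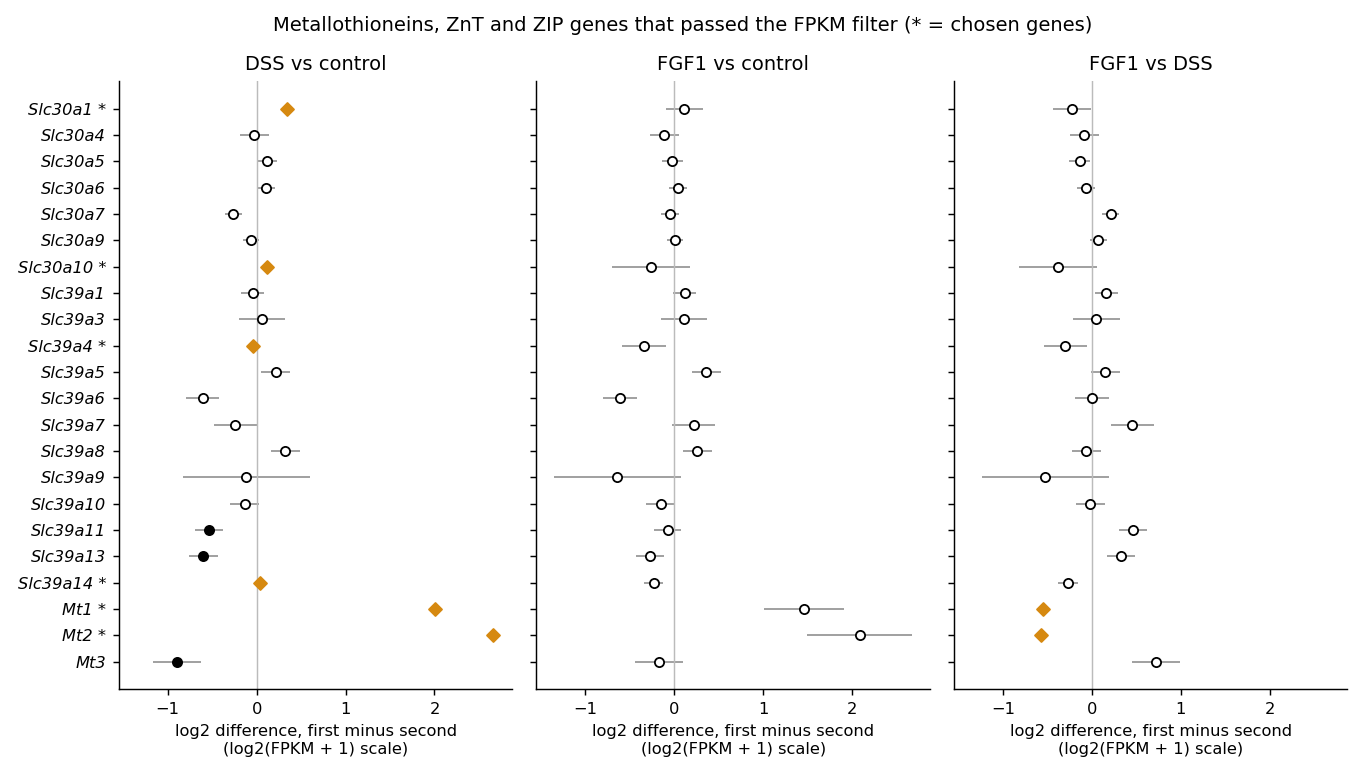
Log2 differences (horizontal axes, log2(FPKM + 1) scale, first group minus second) of the 22 metallothionein, ZnT and ZIP genes that passed the filter, in the 3 comparisons. Filled circles passed an adjusted p of 0.05, open circles did not, bars are the SE, and orange diamonds mark values that carry no test because the choice of genes used them. Mt1 and Mt2 lie beyond the transporters in both comparisons with control, but not between FGF1 and DSS, where they are at -0.55 and -0.58; the transporters lie between -0.64 and 0.465 over the 3 comparisons.

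Genes of the other known inducers of metallothioneins were counted the same way, as lists chosen with results of these libraries known. Of 10 glucocorticoid-induced genes 3 were called as higher in DSS, beside 2.23% of all tested genes called as higher. In all, 7 had a positive log2 difference and 3 a negative one: Tsc22d3 (-0.33), Klf9 (-0.23) and Pdk4 (-0.34). The median of the list was 0.37, against -0.07 over all tested genes. Fkbp5, a glucocorticoid receptor co-chaperone, was at 68.3, 62.7, 38.8 and 40.7 FPKM in the controls and 204, 144, 155 and 170 FPKM in DSS, without overlap as in 3.67% of all tested genes (log2 difference 1.69 ± 0.24, SE; adjusted p 0.00327 in limma). The kinase gene Sgk1 rose by 1.09 ± 0.32 (SE; adjusted p 0.0452) and the cell cycle inhibitor Cdkn1a by 0.56 ± 0.15 (SE; adjusted p 0.0294). In the FGF1 libraries Fkbp5 was at 68.6, 110, 51.8 and 77.2 FPKM, which overlapped the controls. These values lay below all DSS libraries, which was the case for 1.83% of all tested genes. FGF1 minus DSS was -1.16 ± 0.24 (SE) for Fkbp5 and was not called (adjusted p 0.0838 in limma).

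Of 11 tested NRF2 targets, antioxidant genes, 2 rose and 1 fell in DSS, beside 2.23% of all tested genes called as higher and 10.1% as lower; a single gene of 11 that fell is near that background. Srxn1, which repairs peroxiredoxins, rose by 0.58 ± 0.17 (SE; adjusted p 0.0464 in limma) and Gsr, glutathione reductase, by 0.43 ± 0.12 (SE; adjusted p 0.0337), while Me1, malic enzyme, fell by 0.76 ± 0.20 (SE; adjusted p 0.0287). Of 12 tested genes of the interleukin-6 and STAT3 response 1 rose and 1 fell, against the same shares. The acute phase gene Saa3 rose from 11.3 ± 6.46 to 96.4 ± 39.0 FPKM (SD, n = 4; adjusted p 0.00567 in limma). Il6st, the shared receptor subunit gp130, fell from 12.2 ± 4.05 to 4.17 ± 1.91 FPKM (SD, n = 4; adjusted p 0.0201). Of 11 tested copper handling genes 0 were called by limma in any comparison, and 3, 1 and 2 had an unadjusted p under 0.05 for DSS against control, FGF1 against control and FGF1 against DSS. In both FGF1 comparisons 0 genes of these 4 lists were called by limma. Unadjusted p-values under 0.05 were found against control and against DSS for 3 and 3 glucocorticoid-induced genes, 0 and 2 NRF2 targets, and 2 and 3 genes of the interleukin-6 and STAT3 response.

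Fkbp5 and Saa3 lost their calls in 1 of 21 alternatives each, the fit with the smooth muscle markers as covariate. Sgk1 lost its call in 15, Cdkn1a in 8, Srxn1 in 17, Gsr in 11, Me1 in 10 and Il6st in 5 of the 21. Among these are the leaving out of single libraries for each of them, between 3 libraries (Il6st, without control 3, control 4 or DSS 4) and 10 (Srxn1). The highest adjusted p in limma over the alternatives was 0.0766 for Fkbp5, 0.150 for Saa3, 0.566 for Sgk1, 0.305 for Cdkn1a, 0.511 for Srxn1, 0.282 for Gsr, 0.252 for Me1 and 0.402 for Il6st.

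The make-up of the libraries differed between the groups. In bulk tissue, fewer cells of a type and less RNA per cell cannot be told apart. All of the 9 epithelial markers with a value were above 0 in every library, and their sum was 4978 to 5364 FPKM in the controls, 4586 to 6573 FPKM in DSS and 5303 to 6793 FPKM in FGF1. Summed smooth muscle markers ranged from 2242 to 7149, 490 to 1713 and 1015 to 6568 FPKM in the same order. Between DSS and control all 10 fibroblast, all 8 endothelial, 4 of 10 smooth muscle and 6 of 9 macrophage markers were called as lower, beside 10.1% of all tested genes. The lymphocyte sum was 818 to 2367, 41.8 to 112 and 127 to 505 FPKM. When the mean of the smooth muscle markers entered the fit as a covariate, the log2 difference between DSS and control was 1.51 for Mt1 and 1.78 for Mt2, and that between FGF1 and control was 1.28 and 1.77. On the log2 scale that mean was 4.88 to 6.68 in DSS and 7.11 to 8.73 in control, without overlap. The adjusted DSS minus control difference is therefore an extrapolation and cannot separate the markers from the DSS label.

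Neutrophil markers stood apart in the DSS libraries with the most Mt1. Their sum was 137 FPKM in DSS 1 and 48.0 FPKM in DSS 3, against 4.32 FPKM in DSS 2 and 2.57 FPKM in DSS 4, 0.264 to 4.30 FPKM in the controls and 4.23 to 15.3 FPKM in FGF1. Of the 9 markers 8 had a value, and Mpo was at 0 in 10 libraries, S100a9 in 6 and S100a8 in 2. Ly6g made up much of the sums, at 86.6, 3.63, 27.7 and 1.23 FPKM in DSS libraries 1 to 4. It was at 0 to 4.16 FPKM in the controls and 3.72 to 12.2 FPKM in FGF1. Csf3r went the other way, with a mean of 0.081 FPKM in DSS and 0.133 FPKM in the controls. Their part in the metallothionein values was not tested.

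**Figure D5:**
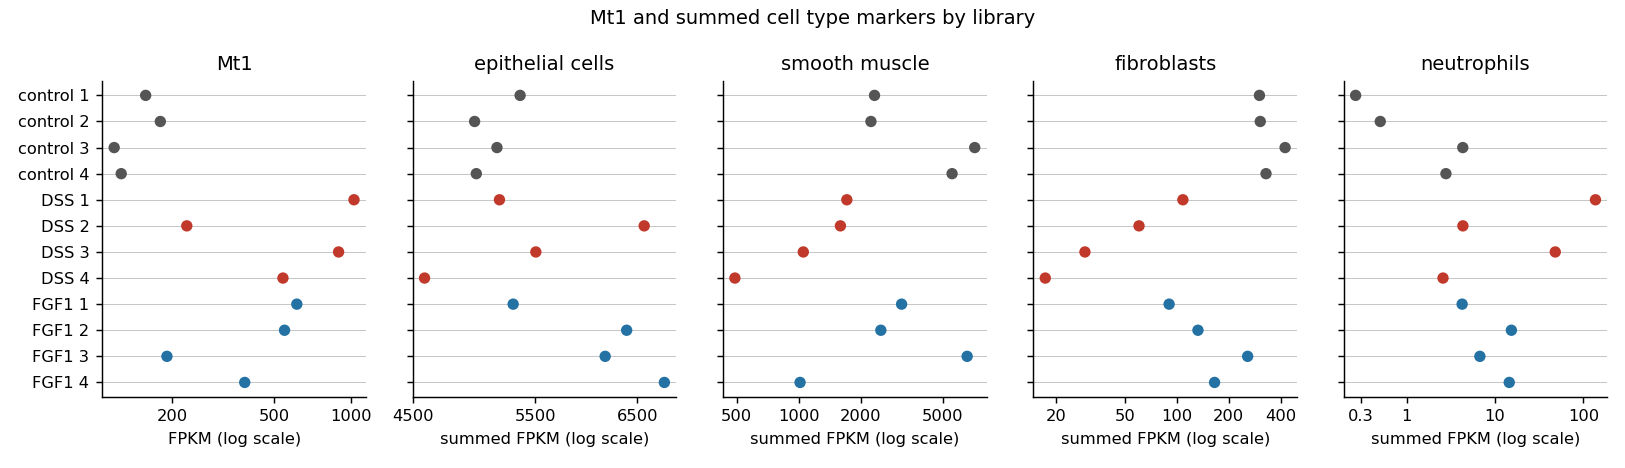
Mt1 (FPKM) and the summed FPKM of epithelial, smooth muscle, fibroblast and neutrophil markers in each of the 12 libraries, on log axes, coloured by group. DSS 1 and DSS 3 have the most Mt1 and the highest neutrophil sums, and FGF1 3, with the least Mt1 of its group, has 6568 FPKM of smooth muscle markers.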

How the data were processed

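Colon RNA of 12 libraries was sequenced, 4 per group by the treatment label. Build GRCm38 and the programs StringTie 1.3.4d, HISAT2 2.0.4, edgeR and cutadapt 1.9 are listed, per the submitters' processing notes, without their roles. Per the labels' protocols, libraries were made from total RNA with oligo(dT) beads. The authors deposited, per library, transcript structure events with each transcript's FPKM. Here a gene's value was the sum over its distinct listed transcripts, with 0 where not listed, where absence and failed assembly look alike. Whole read steps (within 0.05) were met by 37.3% to 49.0% of low values, too few to recover reads, and count models were left out.

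Genes that reached 1 FPKM in at least 4 libraries were fitted with limma 3.58.1 in R 4.3.3 (empirical Bayes with trend, two-sided) on log2(FPKM + 1), in a single model of 12 libraries, with Benjamini-Hochberg adjustment over all 12578 genes; the fit was tested on simulated data. The 3 comparisons share groups. The members and lists were chosen with earlier results of these data known. Named were the 7 genes, the called genes of each list, the tested Slc30a and Slc39a genes, and the genes most correlated with Mt1 and Mt2. Alternatives changed the pseudocount, filter, scaling, gene value, groups fitted, block, covariate and libraries. Coordinates came from GENCODE vM21 (GRCm38). Some items withheld for evaluation are not reported here.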

Additional observations from a re-analysis of the deposited data

Results flagged for a closer look

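Slc30a10 was at 2.32 FPKM in control library 3, while the other 3 control libraries lay between 8.19 and 9.18 FPKM. Its gap to the nearest of them, as a part of the whole range of the group, exceeded Dixon's 95% critical value for 4 samples. It was the only such value among 21 groups of 4 libraries (the 7 genes in 3 groups), and chance alone gives about 1 in 20 groups. Without that library the log2 difference of Slc30a10 was -0.27 between DSS and control and -0.65 between FGF1 and control.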

How the results depend on the processing

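Under the alternatives, 424 values of the 7 genes counted as unchanged, 11 as reversed and 3 as moved further, by a separate rule for values with and without a test. Values without a test counted as unchanged when they moved by less than the spread between libraries, even across 0. Values with a test counted as reversed at any change of sign. They counted as unchanged when direction and call were kept, whatever the size of the move. With the smooth muscle markers as covariate, Slc30a1 turned to -0.078 (DSS minus control), -0.035 (FGF1 minus control) and 0.043 (FGF1 minus DSS), and Slc30a10 to -0.80 (DSS minus control) and 0.21 (FGF1 minus DSS); the cause was not tested. Leaving out single libraries gave -0.052 to 0.26 for Slc30a1 and -0.65 to 0.081 for Slc30a10 between FGF1 and control, negative and positive without control 3 and FGF1 3, and -0.23 to 0.19 for Mtf1 between FGF1 and DSS, which a pseudocount of 0.1 put at 0.0061. Slc39a14 between DSS and control moved from 0.04 to 0.17 with median-of-ratios scaling and 1.10 with start-event values. Slc39a6 turned to 0.40 between DSS and control with start-event values. Mt1 and Mt2 kept their direction in every alternative.

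Between DSS and control 1549 genes were called, and 564 with mean FPKM of at least 5, 727 with start-event values, 1028 with the replicate block, 29 with the smooth muscle covariate, 185 without DSS 3 and DSS 4, and 697 to 1982 without single libraries. Of the 7 genes 2 were called, Mt1 and Mt2, which were chosen for their rise in DSS, so the count is no test of them. The count was 0 with the covariate, without DSS 3 and DSS 4, or without DSS 3 alone (range 0 to 2). Between FGF1 and control the count of 10 (1 higher) became 15 with median-of-ratios scaling (7 higher), 0 with a pseudocount of 0.1 or mean FPKM of at least 5, 50 without a filter, 1 with start-event values or the replicate block, 38 with the compared groups only or without DSS 3 and DSS 4, 2 with the covariate, and 0 to 83 without single libraries, highest without FGF1 3. Between FGF1 and DSS the count of 7 became 16 with mean FPKM of at least 5, 15 with median-of-ratios scaling (8 higher, against 5 of the 7), 1 with start-event values, 3 with the compared groups only, 2 with the block or the covariate, 0 without DSS 3 and DSS 4, and 0 to 43 without single libraries, highest without DSS 1. Transcripts called between FGF1 and control (8) became 4 with a pseudocount of 0.1, 18 without a filter and 0 to 13 without single libraries; between FGF1 and DSS (4) they were 1 to 12 without single libraries.

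The replicate numbers were checked as pairs by correlating same-numbered libraries' deviations from their group means: -0.192 to -0.068 (DSS and control), -0.073 to 0.399 (FGF1 and control) and -0.217 to 0.119 (FGF1 and DSS), with 0, 2 and 1 of 4 libraries closest to their own number. These correlations over all genes cannot show whether same-numbered libraries share more than a number. Slc30a10 was lowest in library 3 of every group, at 2.32, 4.72 and 2.05 FPKM in control, DSS and FGF1. Slc39a9 was at its higher level only in libraries numbered 1 or 2. Why was not tested. The block changed no call among the 7 genes. Depth is unknown, and 4 libraries per group limit the precision.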
